A study of Mus musculus with 18 samples.

Results

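Foxj1, Ccdc153, Tmem212, Rsph1, Dynlrb2, 1110017D15Rik, Rarres2 and Mia are 8 genes read here as ependymal and motile cilia genes. They were taken by symbol from a table of 18683 genes, and all 8 were found. Their levels are described over 18 brain RNA libraries from the hippocampus and the prefrontal cortex. All 8 averaged higher in the hippocampus than in the prefrontal cortex in each of the 3 mouse groups, and none passed the test for a difference between mouse groups.

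Ependymal cells line the ventricles of the brain and carry tufts of motile cilia that beat to move cerebrospinal fluid. A motile cilium is built on an axoneme, a ring of microtubule doublets around a central pair. Dynein arms on the doublets provide the force, and radial spokes and nexin links regulate the bending. Foxj1 encodes the transcription factor that switches on the genes of motile cilia, often together with factors of the RFX family. Rsph1 encodes a radial spoke head protein, and Dynlrb2 a light chain of dynein motors. Ccdc153 encodes a coiled-coil protein and Tmem212 a membrane protein, and both are widely used as markers of ependymal cells. Rarres2 encodes chemerin, a secreted attractant of immune cells, and Mia a small secreted protein that is known from cartilage and melanoma. Gene Ontology annotation gave a cilium or axoneme term to 2 of the 8, Foxj1 and Rsph1, and to 687 of 17021 annotated genes in all. It placed 1110017D15Rik at the manchette, a microtubule structure of spermatids, and Rarres2 and Mia outside the cell.

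The libraries came from male mice of the C57BL/6J strain in 3 groups, with 3 libraries per group and tissue. 5xFAD EV mice received vesicles released by cells into human breast milk, while 5xFAD PBS and wildtype PBS mice received phosphate-buffered saline. The 5xFAD mouse carries mutated human transgenes of Alzheimer's disease driven by the neuronal Thy1 promoter, a promoter of neurons and not of ependymal cells. All mice were injected intravenously every 3 days, 10 times in all, from 5 to 6 months of age, then tested for behaviour and perfused with ice-cold saline before the tissue was taken. The labels do not say that the 3 libraries of a group are separate mice, so p-values measure only how far these libraries spread, and that spread may be technical.

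The promoters of some of the 8 genes hold the same short words. RefSeq's promoter table (build GRCm38.p6) held 6 promoters of 5 of the 8 genes, and the 250 bases before each start were searched on both strands. The words were GTTGCC, which is an X-box half-site bound by RFX factors, its pair GTTGCCNNNCAAC or GTTGCCNNNNCAAC, which overlaps it, and TGTTTA, a word bound by forkhead factors. They were chosen after these promoters had been read, so the matches are a description. The pair stood in Ccdc153, Dynlrb2 and 1 of the 2 promoters of 1110017D15Rik, and in 0.356% of all 32851 promoters. TGTTTA stood in Tmem212 and in 12.0% of all promoters, and the half-site, within a pair or not, in 10.4%. The promoter of Mia held none of these words in this window. The 4 promoters with a match are shown because they carry those words, each 5′ to 3′ on the strand of its gene and ending at the base before the start, with the matches in capitals. Ccdc153 lies at chr9:44240427-44240676 on the plus strand, Tmem212 at chr3:27896369-27896618 on the minus strand, Dynlrb2 at chr8:116504765-116505014 on the plus strand and 1110017D15Rik at chr4:41507765-41508014 on the minus strand.
Ccdc153: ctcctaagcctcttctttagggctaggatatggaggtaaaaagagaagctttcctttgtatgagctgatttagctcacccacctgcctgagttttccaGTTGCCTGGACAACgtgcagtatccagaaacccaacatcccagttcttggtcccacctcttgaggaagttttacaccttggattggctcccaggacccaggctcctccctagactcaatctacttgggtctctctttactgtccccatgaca
Tmem212: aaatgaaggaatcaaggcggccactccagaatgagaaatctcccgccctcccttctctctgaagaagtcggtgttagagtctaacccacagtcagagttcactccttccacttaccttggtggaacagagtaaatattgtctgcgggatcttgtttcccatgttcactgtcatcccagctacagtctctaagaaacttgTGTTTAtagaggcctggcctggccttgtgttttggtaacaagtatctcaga
Dynlrb2: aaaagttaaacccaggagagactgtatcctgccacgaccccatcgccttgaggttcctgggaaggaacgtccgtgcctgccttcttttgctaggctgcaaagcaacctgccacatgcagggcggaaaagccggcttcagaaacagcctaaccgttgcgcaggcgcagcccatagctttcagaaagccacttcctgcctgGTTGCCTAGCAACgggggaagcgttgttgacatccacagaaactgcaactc
1110017D15Rik: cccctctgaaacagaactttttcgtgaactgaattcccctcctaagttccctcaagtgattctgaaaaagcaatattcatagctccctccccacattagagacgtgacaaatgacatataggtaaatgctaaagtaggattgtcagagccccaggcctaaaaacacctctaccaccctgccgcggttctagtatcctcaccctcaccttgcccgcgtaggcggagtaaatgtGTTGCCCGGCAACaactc
The pair began 152 bases before the start in Ccdc153, 51 in Dynlrb2 and 18 in 1110017D15Rik, and TGTTTA began 51 bases before it in Tmem212.

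Levels are FPKM (fragments per length of transcript and per sequencing depth), which allow genes to be compared per length. The libraries held 26437852 to 36901744 reads in the listed genes. The 8 genes together drew 843 to 6064 of those reads per hippocampal library and 264 to 732 per prefrontal library. Their least covered member had a median of 59 reads in the hippocampus and 14 in the prefrontal cortex. The tissue labels were read against markers: 6 of 6 markers of hippocampal neurons were higher in the hippocampus in all 3 groups, at a summed 80.9 to 133 FPKM, against 4.83 to 5.80 FPKM in the prefrontal cortex. Markers of neocortical neurons were mixed. Rorb, Cux2 and Tbr1 were higher in every prefrontal library than in any hippocampal one (Tbr1 20.8 to 34.5 against 7.62 to 15.4 FPKM). Scnn1a was higher in every hippocampal library (1.83 to 2.66 against 0.323 to 0.744 FPKM). Fezf2 (6.99 to 14.5 FPKM in the hippocampus, 5.45 to 11.2 FPKM in the prefrontal cortex) and Rspo1 overlapped. Some libraries stood apart for the 8 genes. Replicate 2 of 5xFAD PBS hippocampus was the highest of the 9 hippocampal libraries for 8 of 8 genes, and replicate 1 of 5xFAD EV hippocampus was second for 8 of 8. Replicate 3 of 5xFAD EV hippocampus was the lowest for 5 and among the lowest 2 for 7. In the prefrontal cortex, replicate 1 of wildtype PBS was the lowest for 6 and among the lowest 2 for 8. In bulk tissue, fewer cells of a type and less RNA per cell cannot be told apart.

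Foxj1, the regulator, was higher in all 9 hippocampal libraries than in any prefrontal library. In the hippocampus it measured 11.6, 6.87 and 2.92 FPKM in 5xFAD EV, 6.23, 15.3 and 5.22 FPKM in 5xFAD PBS and 5.97, 6.11 and 6.20 FPKM in wildtype PBS. Its prefrontal values were 1.22, 2.16 and 2.49 FPKM in 5xFAD EV, 1.11, 1.79 and 2.08 FPKM in 5xFAD PBS and 0.518, 1.23 and 1.76 FPKM in wildtype PBS. The wildtype hippocampal libraries lay within 1.04-fold of each other, while the highest and lowest libraries differed by 3.98-fold in 5xFAD EV and 2.92-fold in 5xFAD PBS. Within each tissue the ranges of the 3 groups overlapped.

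Rsph1 encodes a protein of the axoneme, and Dynlrb2 a dynein light chain whose annotation names the cytoplasmic dynein complex. Rsph1 measured 16.1, 10.1 and 4.39 FPKM in 5xFAD EV hippocampus, 8.76, 28.4 and 8.48 FPKM in 5xFAD PBS hippocampus and 6.67, 8.76 and 7.92 FPKM in wildtype PBS hippocampus. Prefrontal libraries gave 3.23, 4.93 and 4.02 FPKM in 5xFAD EV, 2.82, 3.57 and 2.46 FPKM in 5xFAD PBS and 2.11, 3.15 and 2.54 FPKM in wildtype PBS. Rsph1 was the ciliary gene with the highest prefrontal level, and its lowest hippocampal value fell below its highest prefrontal value, so the tissues overlapped. Dynlrb2 measured 13.6, 9.68 and 2.50 FPKM in 5xFAD EV hippocampus, 8.87, 26.5 and 5.31 FPKM in 5xFAD PBS hippocampus and 5.48, 6.17 and 9.42 FPKM in wildtype PBS hippocampus. Its prefrontal values were 1.59, 2.19 and 1.95 FPKM in 5xFAD EV, 1.39, 3.08 and 1.70 FPKM in 5xFAD PBS and 1.27, 1.30 and 2.24 FPKM in wildtype PBS. The tissues overlapped only through replicate 3 of 5xFAD EV hippocampus, whose 2.50 FPKM lay below the 3.08 FPKM of replicate 2 of 5xFAD PBS prefrontal cortex. Its paralogue Dynlrb1, a dynein light chain used by cells in general, measured 188.8 to 282.8 FPKM in the hippocampus and 198.5 to 279.1 FPKM in the prefrontal cortex. Dynlrb1 differed between the tissues by −0.04 to 0.11 on the log2 scale in the 3 groups and passed the test in none.

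Ccdc153 and Tmem212, the ependymal markers, had the widest gap between the tissues in 5xFAD EV and in wildtype PBS mice, while in 5xFAD PBS mice Dynlrb2 had the widest. Ccdc153 measured 13.7, 7.85 and 4.30 FPKM in 5xFAD EV hippocampus, 4.36, 22.3 and 3.92 FPKM in 5xFAD PBS hippocampus and 8.69, 9.49 and 9.84 FPKM in wildtype PBS hippocampus. The prefrontal values were 0.144, 1.17 and 0.705 FPKM in 5xFAD EV, 1.17, 1.71 and 1.26 FPKM in 5xFAD PBS and 0.025, 0.646 and 1.67 FPKM in wildtype PBS. Every hippocampal library lay above every prefrontal one, and 2 of the 3 5xFAD PBS hippocampal libraries lay below all 3 wildtype ones. Tmem212 measured 9.95, 6.02 and 2.88 FPKM in 5xFAD EV hippocampus, 3.29, 13.7 and 2.22 FPKM in 5xFAD PBS hippocampus and 6.36, 7.09 and 6.16 FPKM in wildtype PBS hippocampus. Prefrontal libraries held 0, 1.13 and 1.48 FPKM in 5xFAD EV, 1.26, 1.49 and 1.04 FPKM in 5xFAD PBS and 0, 0.673 and 0.446 FPKM in wildtype PBS. The libraries without a Tmem212 read were replicate 1 of 5xFAD EV and replicate 1 of wildtype PBS, where 0 reads allow up to 0.159 and 0.138 FPKM (3 reads, counting error only).

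1110017D15Rik had the smallest tissue difference of the 8 genes in each group. Its mean level was the lowest of the 8 in each tissue and group but wildtype PBS prefrontal cortex, where Tmem212 and Mia were lower. It measured 2.13, 0.900 and 0.991 FPKM in 5xFAD EV hippocampus, 1.17, 4.17 and 0.857 FPKM in 5xFAD PBS hippocampus and 0.924, 0.925 and 1.26 FPKM in wildtype PBS hippocampus. Its prefrontal values were 0.257, 0.519 and 0.675 FPKM in 5xFAD EV, 0.723, 0.708 and 0.446 FPKM in 5xFAD PBS and 0.286, 0.976 and 0.589 FPKM in wildtype PBS. Its tissues overlapped, since the 0.976 FPKM of replicate 2 of wildtype PBS prefrontal cortex exceeded the lowest hippocampal values.

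Rarres2 and Mia, the secreted proteins, followed the same order of tissues. Rarres2 had the highest level of the 8 genes in the hippocampus, with 25, 16.8 and 10.0 FPKM in 5xFAD EV, 12.6, 39.0 and 11.4 FPKM in 5xFAD PBS and 14.6, 20.9 and 20.3 FPKM in wildtype PBS. The prefrontal libraries gave 3.56, 6.55 and 6.27 FPKM in 5xFAD EV, 5.92, 8.12 and 7.35 FPKM in 5xFAD PBS and 2.93, 6.23 and 5.17 FPKM in wildtype PBS. The tissues did not overlap for Rarres2. Mia measured 7.26, 4.25 and 1.47 FPKM in 5xFAD EV hippocampus, 2.16, 14.5 and 2.83 FPKM in 5xFAD PBS hippocampus and 2.27, 2.90 and 4.10 FPKM in wildtype PBS hippocampus. Its prefrontal values were 0.404, 0.460 and 0.959 FPKM in 5xFAD EV, 0.801, 1.12 and 0.463 FPKM in 5xFAD PBS and 0.050, 0.901 and 0.824 FPKM in wildtype PBS. Mia did not overlap between the tissues either. RefSeq's gene models overlap Rarres2 with Lrrc61 and Rsph1 with Ubash3a, both also in the table, and the use of strand is not given in the sources used here, so reads of overlapping genes cannot be told apart.

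**Figure D1:**
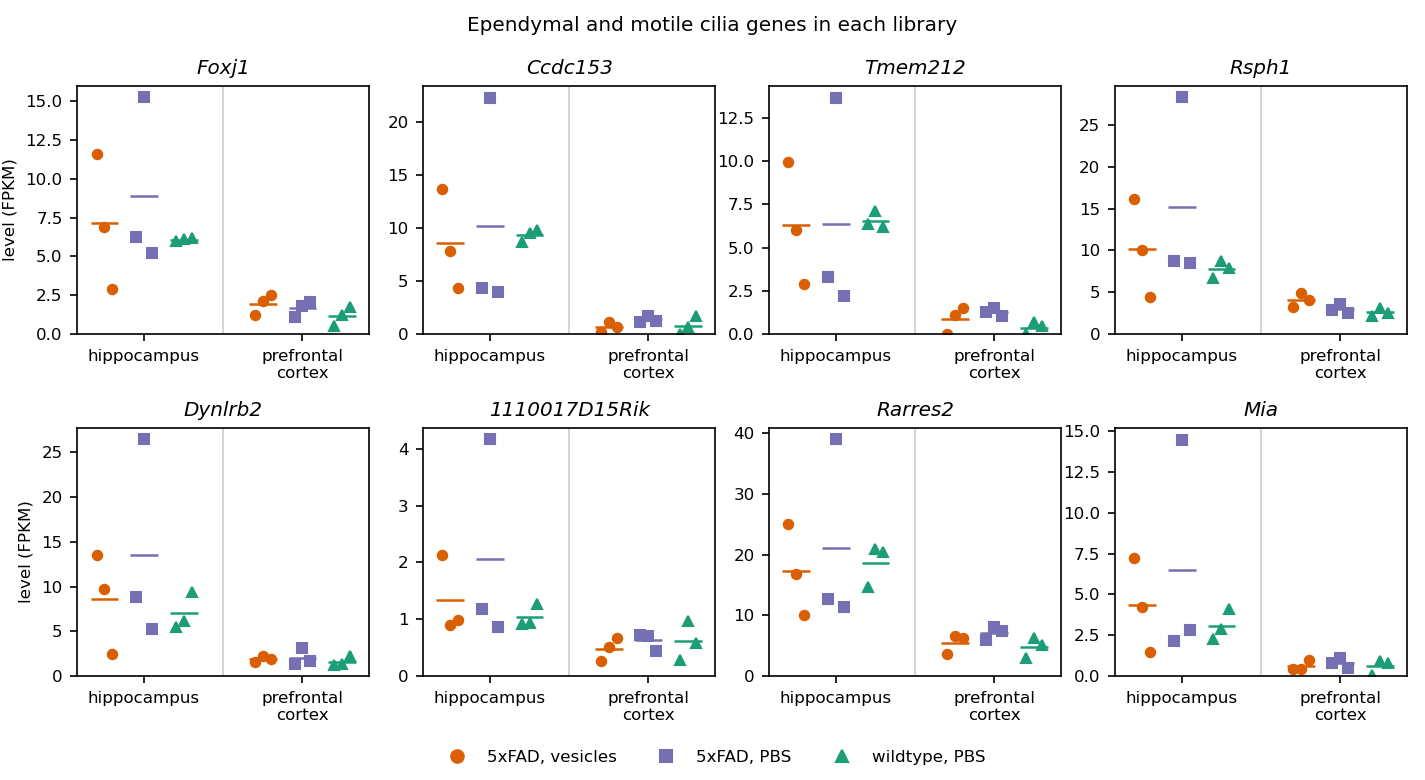
Level of each of the 8 genes in FPKM (vertical axis, linear from 0) in every library, by tissue and group (3 libraries each), with a bar at the group mean. Replicate 2 of 5xFAD PBS hippocampus is the highest point in all 8 panels, and 5 of the 8 genes have no overlap between the hippocampal and prefrontal points.

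Set in order of their mean level in wildtype PBS hippocampus, Rarres2 came first at 18.6 ± 3.49 FPKM (SD, n = 3), apart from the next gene in every library. Ccdc153 at 9.34 ± 0.590, Rsph1 at 7.78 ± 1.05, Dynlrb2 at 7.02 ± 2.11, Tmem212 at 6.54 ± 0.489 and Foxj1 at 6.09 ± 0.114 FPKM followed, and each of these overlapped its neighbour in the order. Mia at 3.09 ± 0.931 and 1110017D15Rik at 1.04 ± 0.196 FPKM came last, and neither overlapped the gene before it.

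The hippocampus held more of these transcripts than the prefrontal cortex in all 3 groups. Every hippocampal library lay above every prefrontal library for 5 of the 8 genes, Foxj1, Ccdc153, Tmem212, Rarres2 and Mia, against 5.21% of the genes tested. In 5xFAD EV mice 6 of 8 were higher in the hippocampus (8.6% of the genes tested were called in that direction), in 5xFAD PBS mice 6 of 8 (15.3%) and in wildtype PBS mice 7 of 8 (8.72%). Tests used limma on log2(FPKM + 0.5), with Benjamini-Hochberg adjustment over all genes tested and a call at an adjusted p under 0.05. On this scale, which understates changes of low genes, the median difference of the 8 genes was 1.59 in 5xFAD EV, 1.98 in 5xFAD PBS and 1.86 in wildtype PBS, beside −0.01, 0.06 and 0.04 over all genes tested.

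Ccdc153 and Tmem212 differed most between the tissues in wildtype PBS mice. Ccdc153 averaged 9.34 ± 0.590 FPKM in wildtype hippocampus and 0.781 ± 0.831 FPKM in wildtype prefrontal cortex (SD, n = 3 each), a log2 difference of 3.17 (SE 0.58, 95% interval 1.94 to 4.4, adjusted p = 0.0011). Tmem212 averaged 6.54 ± 0.489 and 0.373 ± 0.342 FPKM in the same tissues, a difference of 3.10 (SE 0.57, adjusted p = 0.0012). Foxj1 differed by 2.06 (SE 0.43, 95% interval 1.16 to 2.96, adjusted p = 0.0029) and Rarres2 by 1.89 (SE 0.40, adjusted p = 0.0036). Dynlrb2 at 1.83, Mia at 1.80 and Rsph1 at 1.42 passed with adjusted p of 0.024, 0.041 and 0.024. These last 3 calls were the less firm ones: 4 of 8 genes were called without replicate 2 or replicate 3 of wildtype hippocampus, and likewise without replicate 1 of wildtype prefrontal cortex, and each time Rsph1, Dynlrb2 and Mia were lost. 1110017D15Rik differed by 0.50 (95% interval −0.28 to 1.28, adjusted p = 0.42).

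In 5xFAD EV mice Ccdc153 (2.92, adjusted p = 0.0022) and Tmem212 (2.39, adjusted p = 0.0084) again led, followed by Mia at 1.95, Dynlrb2 at 1.66, Rarres2 at 1.53 and Foxj1 at 1.5. Rsph1 at 1.08 (adjusted p = 0.084) and 1110017D15Rik at 0.87 (adjusted p = 0.13) did not pass. The count fell to 2 of 8 without replicate 1 of 5xFAD EV hippocampus or without replicate 1 of 5xFAD EV prefrontal cortex, and to 3 without replicate 2 of the hippocampus. In 5xFAD PBS mice Dynlrb2 (2.21, adjusted p = 0.0056), Ccdc153 (2.08, adjusted p = 0.015), Mia (2.01, adjusted p = 0.017), Foxj1 (2.0, adjusted p = 0.0028) and Rsph1 (1.97, adjusted p = 0.0023) led. Rarres2 at 1.28 passed as well, while Tmem212 at 1.58 (adjusted p = 0.054) and 1110017D15Rik at 0.98 (adjusted p = 0.065) did not. Without replicate 2 of 5xFAD PBS hippocampus, Foxj1, Rsph1 and Dynlrb2 were still called, 3 of 8, and the median difference was 1.27.

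**Figure D2:**
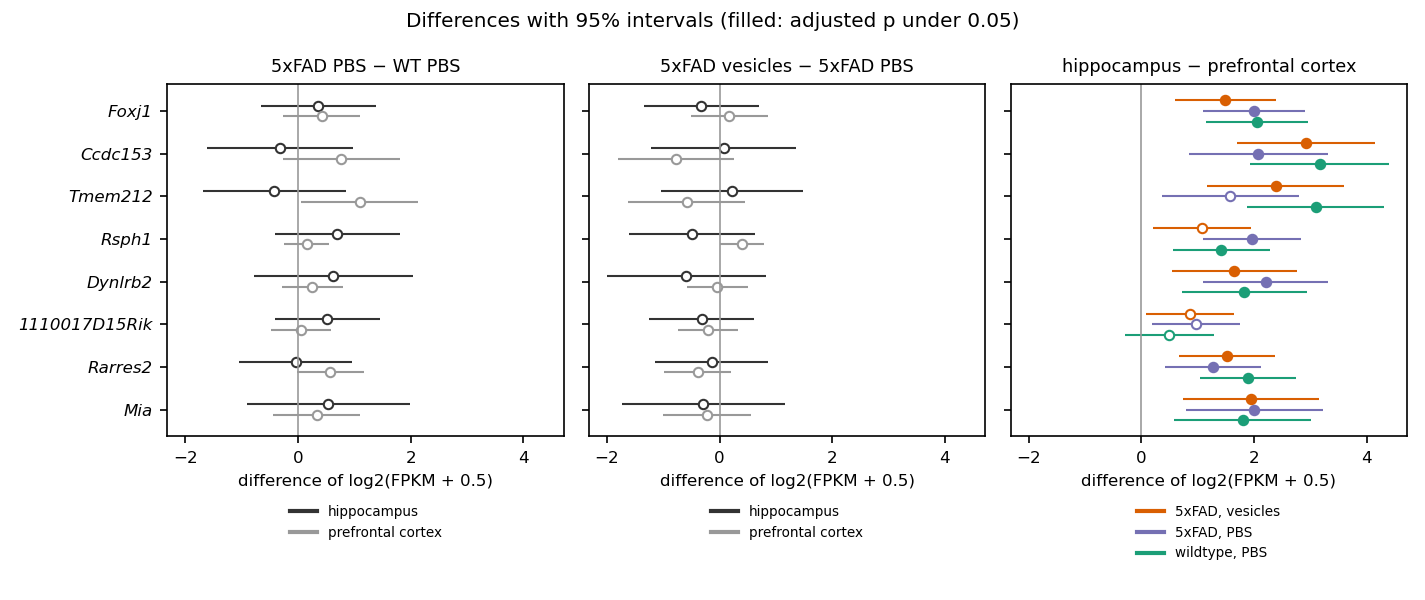
Differences of log2(FPKM + 0.5) for each gene with their 95% intervals, in 3 panels: hippocampus minus prefrontal cortex in each mouse group, 5xFAD PBS minus wildtype PBS in each tissue and 5xFAD EV minus 5xFAD PBS in each tissue. Filled points passed an adjusted p under 0.05, which holds for 19 of the 24 tissue differences and for none of the others.

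5xFAD PBS mice were set against wildtype PBS mice to ask whether the disease model changes these genes. In the hippocampus 0 of 8 genes were called, against 4.59% of the genes tested. limma gave 0 of the 8 at an unadjusted p under 0.05, beside 18.8% of the genes tested, and voom on recovered reads called 0. Rsph1 averaged 15.2 ± 11.4 FPKM in 5xFAD PBS and 7.78 ± 1.05 FPKM in wildtype PBS (SD, n = 3 each), a log2 difference of 0.70 (SE 0.50, 95% interval −0.41 to 1.82, adjusted p = 0.50). Dynlrb2 averaged 13.6 ± 11.3 and 7.02 ± 2.11 FPKM in the same groups, a difference of 0.63 (95% interval −0.78 to 2.04). Foxj1 differed by 0.36 (−0.66 to 1.38), Rarres2 by −0.04 (−1.04 to 0.96) and Tmem212 by −0.42 (−1.68 to 0.85). These intervals reach past 1 log2 unit on at least 1 side of 0, so 3 libraries a group did not exclude a change of that size on that side. The direction turned on 1 library: 5 of the 8 genes were above 0 with all libraries, and 2 of 8 without replicate 2 of 5xFAD PBS hippocampus. Without that library the median was −0.16, and Tmem212 at −1.13 (adjusted p = 0.22) and Ccdc153 at −1.08 (adjusted p = 0.19) were furthest below wildtype.

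All 8 genes averaged higher in 5xFAD PBS than in wildtype PBS prefrontal cortex, and 0 of 8 were called, against 1.96% of the genes tested. limma gave 1 of the 8, Tmem212, at an unadjusted p under 0.05, beside 8.16% of the genes tested, and voom called 0. Tmem212 averaged 1.27 ± 0.227 FPKM in 5xFAD PBS and 0.373 ± 0.342 FPKM in wildtype PBS without overlap, a log2 difference of 1.10 (SE 0.47, 95% interval 0.06 to 2.14, adjusted p = 0.57). The wildtype values rested on 0, 13 and 10 reads, and the share of all genes without overlap is not given here. Ccdc153 differed by 0.77, Rarres2 by 0.58, Foxj1 by 0.42, and the other 4 by 0.05 to 0.33. Without replicate 1 of wildtype PBS, which had no Tmem212 read, 6 of 8 genes were above 0, their median was 0.12 in place of 0.37, and Tmem212 differed by 0.74.

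Markers of the choroid plexus, the epithelium that lies beside the ependyma in the ventricles, moved with the hippocampal groups. Their 14 genes summed to 6639, 2670 and 266 FPKM in 5xFAD EV hippocampus, 3081, 10052 and 3265 FPKM in 5xFAD PBS hippocampus and 93.4, 159 and 238 FPKM in wildtype PBS hippocampus. 10 of the 14 were called higher in 5xFAD PBS than in wildtype PBS hippocampus, against 4.19% of all genes tested, with a median log2 difference of 3.45, and none was at 0 in any hippocampal library. The 8 genes summed to 99.3, 62.4 and 29.5 FPKM in 5xFAD EV hippocampus, 47.5, 164 and 40.2 FPKM in 5xFAD PBS hippocampus and 50.9, 62.3 and 65.3 FPKM in wildtype PBS hippocampus. The 5xFAD EV hippocampal libraries had the same order in both sums, and the highest library of both sums was the same in 5xFAD PBS. The wildtype libraries, too, had the same order in both sums, at lower choroid plexus levels than any 5xFAD hippocampal library. In the prefrontal cortex the marker sum was 65.1 to 85.4 FPKM in 8 libraries and 1063 FPKM in replicate 3 of 5xFAD EV, where the 8 genes summed to 18.5 FPKM, inside the range of the other prefrontal libraries (7.19 to 21.6). Kcne2, Cldn2 and Slc4a5 were at 0 in 2, 3 and 2 prefrontal libraries.

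Between the tissues, 7 of the 14 markers were called higher in the hippocampus in 5xFAD EV, 14 in 5xFAD PBS and 1 in wildtype PBS (8.6%, 15.3% and 8.72% of all genes tested), with medians of 2.13, 3.89 and 0.42. Meningeal markers summed to 62.8 to 124 FPKM in 5xFAD EV, 110 to 233 FPKM in 5xFAD PBS and 50.6 to 104 FPKM in wildtype PBS hippocampus, and to 29.7 to 80.9 FPKM in the prefrontal cortex. Striatal neuron markers, taken here as markers of neighbouring tissue, ranged from 60.1 to 377 FPKM in the prefrontal cortex and from 38.6 to 87.1 FPKM in the hippocampus. The part of choroid plexus, meningeal and neighbouring tissue in the tissue and group differences was not tested. With the choroid plexus level as a covariate, Foxj1 was called lower in 5xFAD PBS than in wildtype PBS hippocampus, at −1.55 (limma adjusted p = 0.044), and 0 of 8 genes were above 0, but that level and the genotype cannot be told apart in these libraries.

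**Figure D3:**
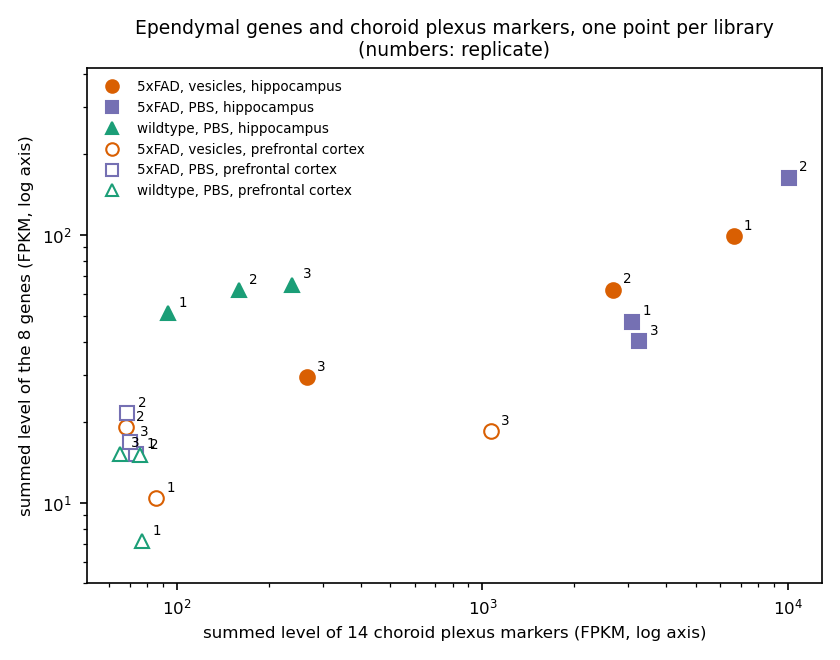
Summed FPKM of the 8 genes (vertical log axis) against summed FPKM of 14 choroid plexus markers (horizontal log axis) in the 18 libraries, with filled points for the hippocampus, open points for the prefrontal cortex, colours for the groups and numbers for the replicates. Wildtype hippocampal libraries sit at 50.9 to 65.3 FPKM of the 8 genes with at most 238 FPKM of choroid plexus markers, and the prefrontal library at 1063 FPKM of markers lies level with the other prefrontal libraries.

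5xFAD EV mice were set against 5xFAD PBS mice to ask what the vesicles change. In the hippocampus 0 of 8 genes were called, and limma called 0% of the genes tested, with 519 of them and 0 of the 8 at an unadjusted p under 0.05 and 0 of the 8 by voom. Differences ran from −0.59 for Dynlrb2 (95% interval −2.0 to 0.82) to 0.22 for Tmem212 (−1.05 to 1.49), with adjusted p of 0.87 to 0.98. Here too single libraries set the direction. With all libraries 2 of 8 genes were above 0 (median −0.30). Without replicate 2 of 5xFAD PBS all 8 were (median 0.32) and without replicate 3 of 5xFAD EV 6 of 8 were (median 0.18). None was above 0 without replicate 1 of 5xFAD EV (median −0.67), without replicate 1 of 5xFAD PBS (−0.50) or without replicate 3 of 5xFAD PBS (−0.60), and 0 were called each time.

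In the prefrontal cortex 0 of 8 genes were called between 5xFAD EV and 5xFAD PBS, and limma called 0% of the genes tested, with 616 at an unadjusted p under 0.05. Rsph1 was the 1 member at an unadjusted p under 0.05, and voom called 0. It averaged 4.06 ± 0.852 FPKM in 5xFAD EV and 2.95 ± 0.567 FPKM in 5xFAD PBS (SD, n = 3 each), a log2 difference of 0.40 (SE 0.18, adjusted p = 0.82). Ccdc153 was furthest the other way, at 0.674 ± 0.515 FPKM in 5xFAD EV and 1.38 ± 0.287 FPKM in 5xFAD PBS, a difference of −0.77.

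Against wildtype PBS mice, 5xFAD EV mice had 0 of 8 genes called in the hippocampus (2.1% of the genes tested) and 0 of 8 in the prefrontal cortex (1.52%). The hippocampal differences ran from −0.25 to 0.25 with adjusted p of 0.91 to 0.99. There limma gave 0 of the 8 at an unadjusted p under 0.05, beside 12.3% of the genes tested. Without replicate 3 of 5xFAD EV hippocampus all 8 were above 0, with a median of 0.42, and without replicate 1 none was, with a median of −0.40. In the prefrontal cortex Rsph1 was higher in each 5xFAD EV library than in any wildtype PBS library, 4.06 ± 0.852 against 2.60 ± 0.523 FPKM, a log2 difference of 0.55 (SE 0.18, 95% interval 0.16 to 0.95, adjusted p = 0.20). Rsph1 was the 1 member of the 8 at an unadjusted limma p under 0.05 there, beside 15% of the genes tested, and voom called 0 in both tissues. The share of all genes without overlap between these groups is not given here. These comparisons share libraries with the ones above.

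Whether the effects differed between the tissues was tested with interaction terms over all 18 libraries. For 5xFAD PBS against wildtype PBS, 0 of 8 genes were called (0% of the genes tested, 787 of them at an unadjusted p under 0.05), and the furthest from 0 was Tmem212 at −1.51 (SE 0.81, adjusted p = 0.89). For 5xFAD EV against 5xFAD PBS, 0 of 8 were called (0% of the genes tested, 680 at an unadjusted p under 0.05), with estimates of −0.89 for Rsph1 to 0.84 for Ccdc153. limma gave 0 of the 8 at an unadjusted p under 0.05 in either interaction, and voom called 0.

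The 8 genes were then placed among 90 other genes of motile cilia in the table, grouped by role, of which 64 were expressed enough to be tested in the hippocampus and across tissues. Of these, 28 were higher and 1 lower in the hippocampus in 5xFAD EV, 39 and 1 in 5xFAD PBS and 19 and 1 in wildtype PBS, with median differences of 0.70, 0.77 and 0.54. Over all genes tested 8.6%, 15.3% and 8.72% were called higher and 8.32%, 9.78% and 7.16% lower in the same groups. The lower gene was each time Lrrc6, a dynein arm assembly factor, which averaged 2.25 FPKM in wildtype hippocampus and 4.21 FPKM in wildtype prefrontal cortex and is named after its values were seen. Of 5 regulators of multiciliated cells that could be tested, 2 were higher in the hippocampus in 5xFAD EV, 4 in 5xFAD PBS and 2 in wildtype PBS. Gmnc, which starts the multiciliated cell programme upstream of Foxj1, averaged 0.384 FPKM in wildtype hippocampus and 0.0886 FPKM in wildtype prefrontal cortex (log2 difference 0.58, adjusted p = 0.0078). Trp73, another regulator of multiciliated cells, differed by 0.73 (adjusted p = 0.045), and Rfx3, an RFX factor that neurons also express, by 0.49 (adjusted p = 0.068) from a higher level, 4.16 FPKM in wildtype hippocampus and 2.77 FPKM in wildtype prefrontal cortex. Mcidas, another regulator of the programme, was too low to be tested and averaged 0.0291 FPKM in wildtype hippocampus and 0.0384 FPKM in wildtype prefrontal cortex.

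Among the axonemal genes in wildtype mice, 2 of 7 dynein arm genes, 3 of 9 of the radial spokes and nexin links, 0 of 4 of the central pair and 6 of 15 proteins of the doublet tubules were higher in the hippocampus, beside 8.72% of all genes tested. Dnali1, an inner arm light chain, averaged 1.97 ± 0.467 FPKM in wildtype hippocampus and 0.346 ± 0.257 FPKM in wildtype prefrontal cortex, a log2 difference of 1.58 (adjusted p = 0.020). Cfap126, which positions basal bodies, averaged 2.63 ± 0.502 and 0.482 ± 0.290 FPKM in those tissues (1.70, adjusted p = 0.0046). The radial spoke head gene Rsph4a, a partner of Rsph1, averaged 1.86 and 0.673 FPKM in those tissues (1.0, adjusted p = 0.031). Fam183b, a ciliary gene, was the most abundant of those named, at 10.9 ± 1.71 and 3.20 ± 0.765 FPKM (1.63, adjusted p = 0.00049), and Vwa3b differed most of the called genes, at 1.56 ± 0.163 and 0.0982 ± 0.0289 FPKM (1.78, adjusted p = 3.7e-06). The large genes Hydin, of the central pair, and Dnah5, an outer arm heavy chain, were too low to be tested, at 0.0727 to 0.452 and 0.215 to 0.568 FPKM in the hippocampus.

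Between mouse groups, 0 of the wider genes were called in any comparison by limma or voom. In 5xFAD PBS against wildtype PBS hippocampus 3 were called when only those 6 libraries were fitted, and 1 with the choroid plexus covariate. The prefrontal cortex had 39 testable genes. Of these, 30 were above 0 in 5xFAD PBS against wildtype PBS and 14 in 5xFAD EV against 5xFAD PBS, beside 57% and 55.9% of all genes tested. At an unadjusted limma p under 0.05 were 1 and 6 of the 39, beside 8.16% and 4.72% of all genes tested. In the hippocampus 56 of 64 were above 0 in 5xFAD PBS against wildtype PBS (median 0.29, beside 0.02 over all genes tested, with 12 at an unadjusted p under 0.05), and 17 of 64 were above 0 in 5xFAD EV against 5xFAD PBS (median −0.13, 0 at an unadjusted p under 0.05). Over all genes tested 54.4% and 44.1% were above 0 in these comparisons, and 18.8% were at an unadjusted p under 0.05 in the first, so the 12 of 64 were no larger a share. Replicate 2 of 5xFAD PBS hippocampus stood apart for some of the wider genes too. In replicates 1, 2 and 3 of that group Dnali1 measured 2.46, 6.08 and 1.41 FPKM. Ak7 measured 1.19, 2.90 and 0.660 FPKM there, and 1.32 to 1.41 FPKM in wildtype PBS hippocampus. Vwa3b, at 2.13, 1.66 and 1.32 FPKM, did not peak in replicate 2. How many of the 64 were above 0 without that library is not given here. The widest of the 64 genes between 5xFAD PBS and wildtype PBS were Calml4 and Drc7. Calml4, a calmodulin-like gene, measured 17.4, 7.90 and 1.52 FPKM in 5xFAD EV hippocampus, 10.3, 40.4 and 11.8 FPKM in 5xFAD PBS hippocampus and 1.82 to 3.20 FPKM in wildtype PBS hippocampus. Its difference between 5xFAD PBS and wildtype PBS was 2.56 (SE 0.73, adjusted p = 0.087). Drc7, of the nexin links, measured 10.7, 4.61 and 1.06 FPKM in 5xFAD EV, 5.77, 14.9 and 5.83 FPKM in 5xFAD PBS and 1.18 to 1.56 FPKM in wildtype PBS hippocampus, a difference of 2.17 (SE 0.61, adjusted p = 0.083). For both, each 5xFAD PBS library lay above each wildtype library, while all 8 ependymal and ciliary genes overlapped between these groups. Calml4 and Drc7 are named in this comparison after their values were seen. In the prefrontal cortex the same 2 genes peaked in the library with 1063 FPKM of choroid plexus markers, replicate 3 of 5xFAD EV, at 2.27 FPKM for Calml4 and 1.30 FPKM for Drc7, against at most 0.322 and 0.298 FPKM in the other 8 libraries.

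**Figure D4:**
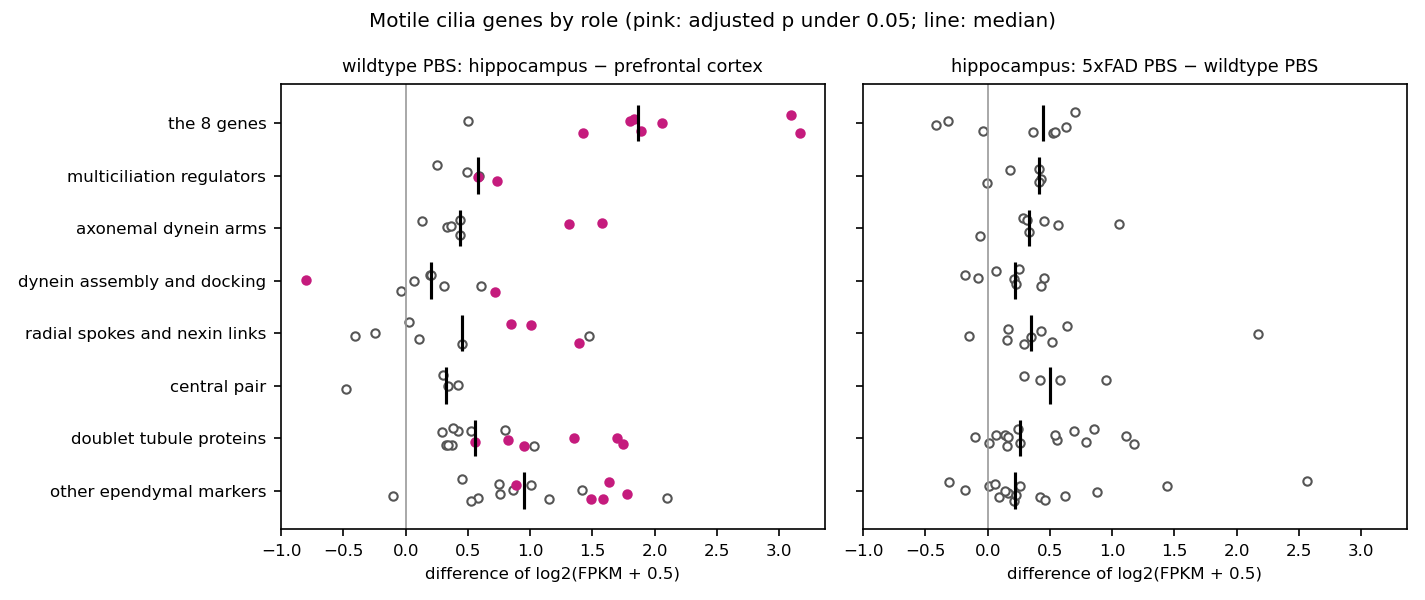
Differences of log2(FPKM + 0.5) of the wider motile cilia genes by role, with wildtype hippocampus minus wildtype prefrontal cortex on the left and 5xFAD PBS minus wildtype PBS in the hippocampus on the right. Each point is a gene, pink points passed an adjusted p under 0.05 and the line is the role's median; 19 genes on the left are called higher and 1 lower, and none on the right is called.

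Within the hippocampus the 8 genes rose and fell together over libraries, and in the prefrontal cortex some pairs did so only weakly. Across the 9 hippocampal libraries the 28 pairs of genes had correlations of log2 levels from 0.73 to 0.98 (median 0.88), closest for Ccdc153 with Tmem212. Across the 9 prefrontal libraries they ran from 0.17 to 0.93 (median 0.64). These are descriptions over libraries that share tissue, dissection and depth. Pooled over the groups of a tissue, libraries of a group differed widely in these genes. The pooled SD of log2 levels in the hippocampus was 0.63 to 1.0, at the 98.6 to 99.8 percentile of all genes tested. The median of all genes tested, whatever their level, was 0.159. In the prefrontal cortex the pooled SD was 0.249 for Rsph1 to 0.730 for Tmem212, beside a median of 0.145. Dynlrb1 had 0.218 in the hippocampus. The hippocampal spread was unequal between groups, while the tests used a common spread. In wildtype PBS the highest hippocampal library was 1.04-fold (Foxj1) to 1.81-fold (Mia) the lowest. That ratio was 2.37 (1110017D15Rik) to 5.44 (Dynlrb2) in 5xFAD EV and 2.92 (Foxj1) to 6.71 (Mia) in 5xFAD PBS.

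The genes whose pattern was most like the mean of the 8 over all 18 libraries, among 12417 genes outside all lists used here, were 1700094D03Rik (r = 0.979), Ubxn10 (0.973), Fam166c (0.973), Fam216b (0.971), Cdhr4 (0.961), Ppp1r32 (0.960), 2410004P03Rik (0.956), Tctex1d4 (0.955), Acot1 (0.954) and Prelp (0.950). Correlations over 18 libraries, here and below, include the difference between the tissues. Within the hippocampus these genes had r of 0.796 (Acot1) to 0.969 (Ubxn10). Within the prefrontal cortex r ran from 0.412 (2410004P03Rik) to 0.931 (Fam216b). Ranked with the listed genes included, 12512 in all, the 100 most alike held 24 of the 47 wider motile cilia genes that could be ranked and 0 of the 14 choroid plexus markers. Taken singly, with listed genes included, Ccdc153 was closest to Cfap161 (0.979), Rsph1 to Lrrc23 (0.972), Dynlrb2 to Fam166c (0.985), Mia to Dnali1 (0.970) and 1110017D15Rik to Cd24a (0.927). Foxj1 was closest to 1700094D03Rik (0.968). Tmem212 and Rarres2, a membrane and a secreted protein, were closest to each other (0.978).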

How the data were processed

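RNA of 18 libraries was sequenced, and the authors deposited 1 table of FPKM values for 18683 genes, with 1 column per library. Per the submitters' processing notes, fastp, HISAT2 and HTSeq were used with build GRCm39. The labels name neither the annotation nor the use of strand nor a gene filter. In all 18 columns the deposited FPKM values of 100% of genes were whole multiples of 1 read's worth (tolerance 1e-06), which gave the reads behind each value.

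A gene was tested where 3 or more libraries of the fit reached 0.5 FPKM, on log2(FPKM + 0.5) with limma 3.58.1 in R 4.3.3 (eBayes with trend, two-sided), with Benjamini-Hochberg adjustment across every gene in the fit. Fits used the 9 libraries of a tissue for comparisons of mouse groups, and all 18 for tissues and interactions. All 8 genes passed the filter in every fit. The scripts were tested on simulated data. Tables and plots used Python 3.11.15, pandas 2.3.3, numpy 2.4.6 and matplotlib 3.10.9.

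The 8 genes, the wider lists and the marker lists were chosen with earlier results of these data known. The text names the 8 genes in every comparison, Dynlrb1, up to 8 called genes of the wider lists with the largest differences and at least 1 FPKM, fixed examples of each role, and the 10 genes most alike in pattern. Equal replicate numbers do not mark the same mouse in the labels. Same-numbered libraries deviated together (every correlation over 0.1, at 0.213, 0.509 and 0.169) only between 5xFAD PBS and wildtype PBS in the prefrontal cortex. Alternatives changed the pseudocount (0.1, 1), the filter (1 FPKM or none), the test (voom on recovered reads), the libraries, a replicate block and a choroid plexus covariate.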

Additional observations from a re-analysis of the deposited data

How the results depend on the processing

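Of 1442 single estimates under alternatives, 1388 kept their side of the threshold. The genotype and vesicle comparisons and both interactions kept 0 of 8 genes called, with these exceptions. With the choroid plexus level as a covariate, 1 gene was called in 5xFAD PBS against wildtype PBS hippocampus and 1 in 5xFAD EV against wildtype PBS hippocampus, Foxj1 both times, at −1.55 (limma adjusted p = 0.044, 0.044 to 0.96 over all its alternatives) and −1.26 (adjusted p = 0.040, 0.040 to 1), with medians of −1.80 and −1.35. That level was at most 238 FPKM in wildtype PBS and at least 266 FPKM in 5xFAD hippocampal libraries, so it and the genotype cannot be told apart. Between tissues, voom on recovered reads called 4 of 8 genes in wildtype PBS, 4 in 5xFAD PBS and 4 in 5xFAD EV. Leaving out 1 library gave 2 to 7 genes called in 5xFAD EV, 3 to 8 in 5xFAD PBS and 4 to 6 in wildtype PBS. Foxj1 was called between tissues in all 15 alternatives in 5xFAD PBS and in wildtype PBS, and in 5xFAD EV it was lost in 4 of 15. With a replicate block, 6 genes were called between tissues in 5xFAD EV, 7 in 5xFAD PBS (Tmem212 added, adjusted p = 0.040) and 7 in wildtype PBS, and 0 in the other comparisons. In the prefrontal comparison of 5xFAD PBS with wildtype PBS, where same-numbered libraries deviated together, the block left 0 called, with a lowest limma adjusted p of 0.066. The labels do not pair these libraries. Leaving out 3 libraries together (replicate 2 of 5xFAD PBS and replicate 3 of 5xFAD EV hippocampus, replicate 1 of wildtype PBS prefrontal cortex) was chosen after seeing the data. It called 0 of 8 genes in 5xFAD EV against 5xFAD PBS hippocampus and in both interactions, and its directions are not read, since that choice of libraries sets them. Reads limit what the prefrontal cortex can show, where the least covered gene had a median of 14.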
